A study of Mus musculus and Mus musculus musculus x Mus musculus castaneus with 52 samples.

Results

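The 7 genes described here encode the ligand Bmp4, its secreted antagonist Nog, the inhibitory Smads Smad6 and Smad7, and the Id genes Id1, Id2 and Id3, which BMP signalling induces. They were chosen by symbol, with no threshold on a measured value, from a deposited table of 16687 genes, and all 7 were found in it. The table holds RNA sequencing of mouse pluripotent stem cells in 24 libraries.

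Induced pluripotent stem cells (iPSCs, made by reprogramming somatic cells) comprised 3 female lines (LV20, LV21, LV22) and 3 male lines (LV4, LV8, LV16), each sequenced late, at passage 13 (P13), where the female lines are labelled XO, and early, at passage 7 (P7), where they are labelled XX. Embryonic stem cells (ESCs) at passage 5 comprised 2 XX lines (CM1, CM2) and 2 XY lines (CM3, CM7). A second set of ESCs comprised 2 clones labelled Dusp9+/- (XX), the wild-type (WT) XX line F121 and the WT XY line V6.5. These were read after 24 h without the cytokine LIF, in medium with 10% serum, and at 0 h, in serum with LIF, without feeder cells. Dusp9 is an X-linked phosphatase that acts on the kinase ERK. The iPSC and V6.5 lines are Mus musculus, whereas the CM, F121 and Dusp9+/- lines come from a cross of musculus and castaneus mice. F121 and V6.5 gave 1 library per time each, and the Dusp9+/- genotype rests on 2 clones.

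BMP ligands bind paired serine/threonine kinase receptors, which phosphorylate Smad1, Smad5 and Smad9. These enter the nucleus with Smad4 and switch on target genes, among them the Id genes and the inhibitors Smad6 and Smad7, which feed back on the receptors. Id proteins bind the E proteins and keep them from DNA, and in mouse ESCs kept with LIF the serum or added BMP acts through Id genes to hold back neural differentiation.

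The start regions of Id2 and Id3 are shown because these members moved in opposite directions in the Dusp9+/- clones and the WT lines after LIF withdrawal. Each runs from 250 bases before to 50 bases after the gene start in RefSeq (GRCm38.p6), Id2 at chr12:25096043-25096342 on the minus strand and Id3 at chr4:136143572-136143871 on the plus strand. Capitals mark GGCGCC, a GC-rich element that BMP Smads bind, and CAGAC or its reverse complement GTCTG, which Smad4 binds.
Id2: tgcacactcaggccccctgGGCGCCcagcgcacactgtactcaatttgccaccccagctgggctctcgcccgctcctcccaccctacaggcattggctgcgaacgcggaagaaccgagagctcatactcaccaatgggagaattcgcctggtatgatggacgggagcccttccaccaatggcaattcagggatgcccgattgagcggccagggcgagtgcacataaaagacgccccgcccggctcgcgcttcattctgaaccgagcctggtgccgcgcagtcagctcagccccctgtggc
Id3: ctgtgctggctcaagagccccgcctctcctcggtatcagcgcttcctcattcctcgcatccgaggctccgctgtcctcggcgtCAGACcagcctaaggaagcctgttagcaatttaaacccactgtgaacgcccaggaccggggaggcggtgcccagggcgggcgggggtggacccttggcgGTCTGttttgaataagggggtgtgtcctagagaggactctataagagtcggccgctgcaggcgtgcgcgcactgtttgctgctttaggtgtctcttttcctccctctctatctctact
Both strands were searched. GGCGCC began 231 bases before the start of Id2, and 11.9% of 32544 RefSeq start regions of this length hold it. CAGAC was found at 2 places in the Id3 region, 167 and 68 bases before the start, as in 16.1% of all regions with at least 2 matches. Start regions were at hand for 4 members. Neither motif was found in those of Bmp4 (chr14:46390620-46390919, minus strand) and Smad6 (chr9:64022010-64022309, minus strand). CANNTG, the E-box that E proteins bind, occurred 3 times in the region of Bmp4, once in that of Id2, once in that of Smad6 and not in that of Id3, and 72.3% of all regions hold at least 1. Id1 lies on chromosome 2 (152736251 to 152737410) and Nog on chromosome 11 (89300638 to 89302559).

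The libraries held 8309171 to 14245900 reads. Levels are given in CPM, which are reads scaled to the size of the library. Differences between groups are on the log2 scale, from limma, each with its standard error (SE). A gene was called when its p, two-sided and adjusted over all genes tested by the Benjamini-Hochberg method, was under 0.05. The core pluripotency markers summed to 1730 to 2995 CPM, and none of the 6 was at 0 in any library. Median X-linked minus autosomal log2 output ran from 0.06 to 0.46 in XX libraries other than LV21 at P7, which stood at -0.27, and from -0.77 to -0.46 in XY libraries. The P13 female lines stood at -0.66 (LV20), -0.75 (LV21) and -0.26 (LV22), so LV21 at P7 and LV22 at P13 stood apart from their groups. Dusp9 had 209 and 95.7 CPM in the libraries labelled Dusp9+/- clone 1 and clone 2 at 24 h, against 229 CPM in the F121 library and 76.9 CPM in the V6.5 library. At 0 h it had 62.1 and 172 CPM in clone 1 and clone 2, against 122 CPM for F121 and 59.8 CPM for V6.5. Between the times the clones changed places, so the clone numbers may be crossed at 1 of the 2 times. The mutated region is not given in the labels, and whole-gene reads do not show the genotype.

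Smad7, which blocks receptor-activated Smads of both the BMP and TGF-beta branches, varied least of the 7. Its highest library stood 2.49-fold above its lowest, and its SD of 0.30 on the log2 scale was at percentile 33.2 of all genes tested. Nog varied most, with an SD of 1.46 at percentile 97.3, over counts of 1 to 74 reads per library. The SDs of the other members were 1.02 for Bmp4, 0.95 for Id1, 0.91 for Id3, 0.76 for Smad6 and 0.73 for Id2. In the order of the 12 groups, the ranges of neighbouring groups overlapped in 6 of 11 pairs for Bmp4, 7 of 11 for Id2, Id3 and Smad6, and 8 of 11 for Id1, Smad7 and Nog. Neighbours of 1 library each have no spread and could not overlap, so these counts depend on group size. Most steps in these orders are not settled. The group with the highest mean log2 level was WT XY ESCs at 0 h for Bmp4 and Smad7, XY ESCs at passage 5 for Id3, XX ESCs at passage 5 for Smad6, XY iPSCs at P7 for Nog, and the 24 h Dusp9+/- clones for Id1 and Id2. The lowest was V6.5 at 24 h for all 3 Id genes, V6.5 at 0 h for Smad6 and Nog, XX iPSCs at P7 for Bmp4 and the 24 h Dusp9+/- clones for Smad7. In these bulk libraries, fewer cells of a kind and less RNA per cell cannot be told apart.

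**Figure D1:**
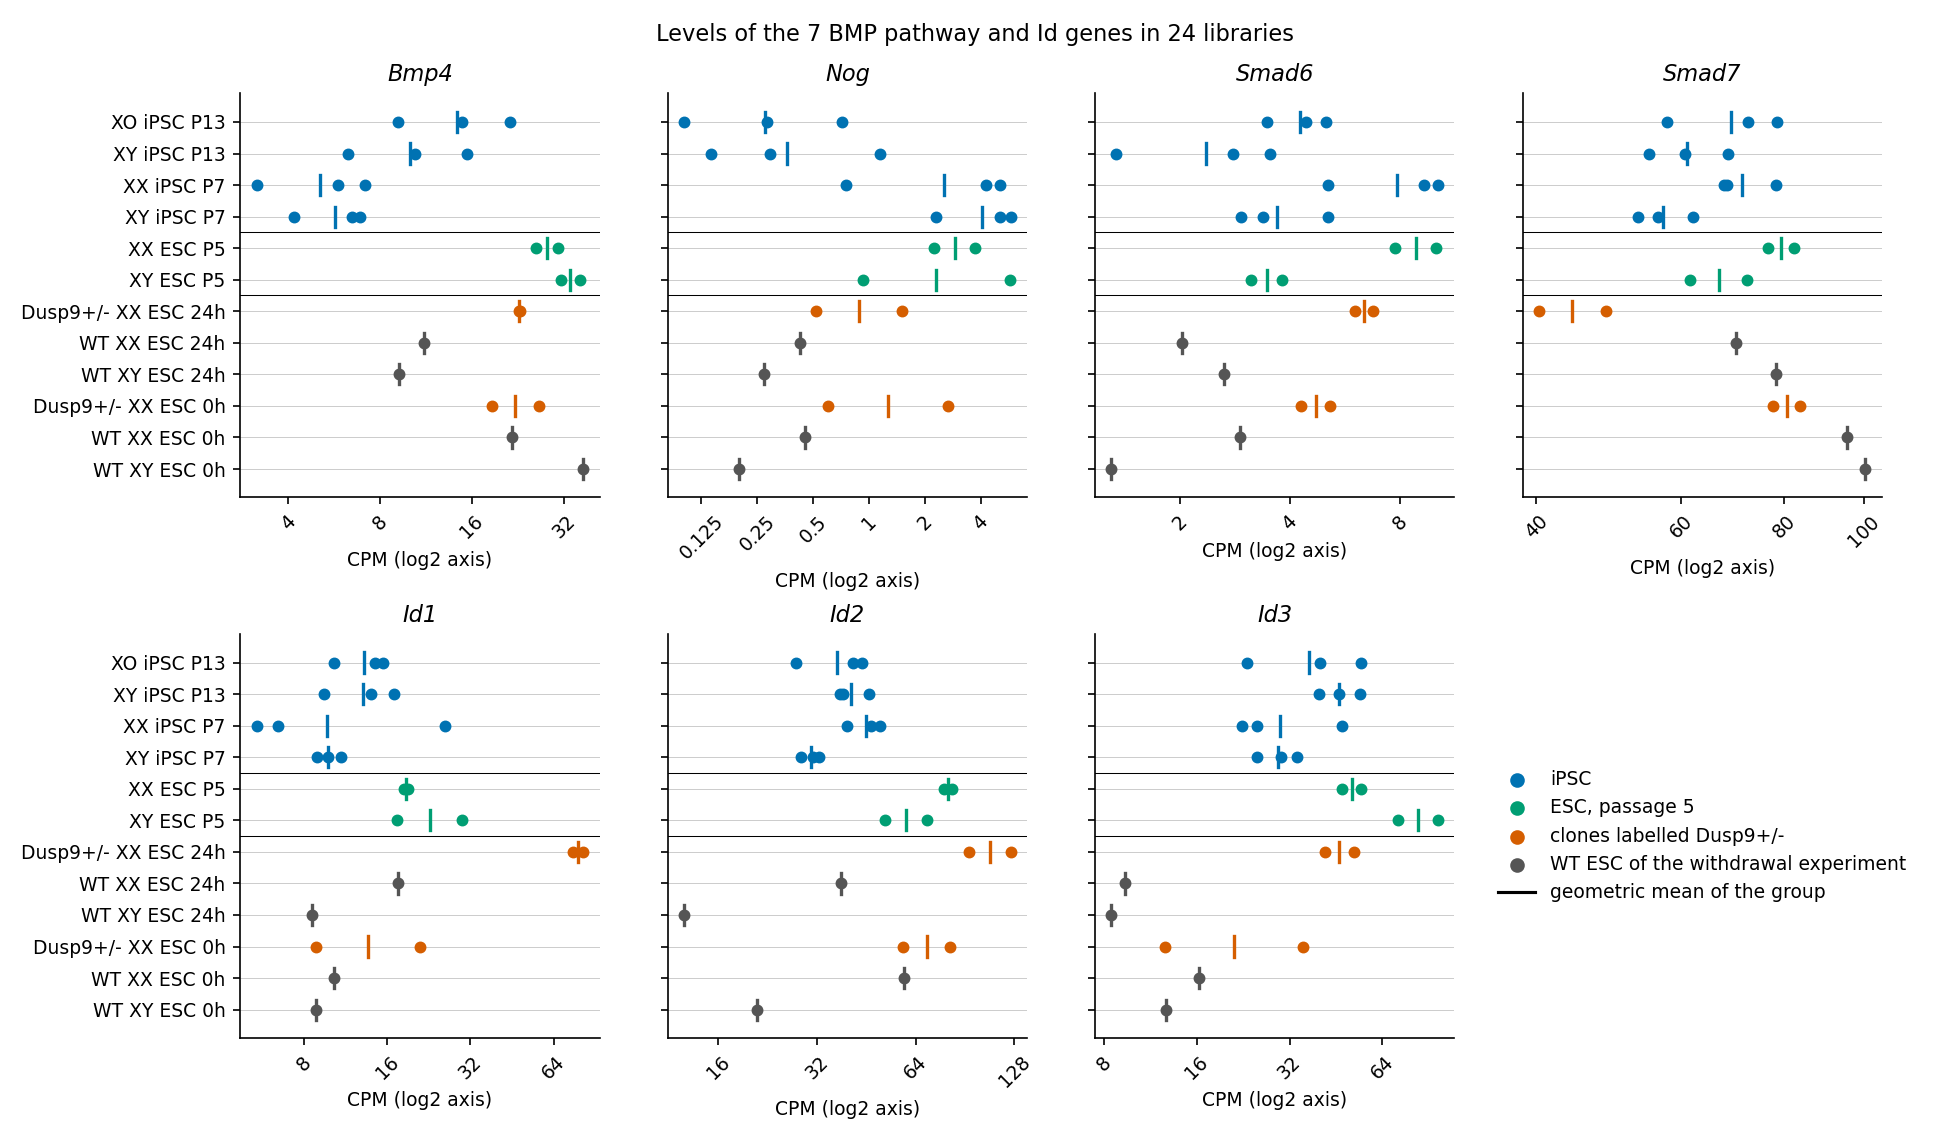
Levels of the 7 genes in CPM (log2 axis) in each of the 24 libraries, by group, with points for libraries and a vertical line at the geometric mean of the group. The 24 h Dusp9+/- clones lie highest for Id1 (75.2 and 81.9 CPM) and lowest for Smad7 (40.3 and 48.6 CPM), and the P13 iPSC groups reach the lowest Nog values.

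After 24 h without LIF, the libraries labelled Dusp9+/- held more Id2 and Smad6 transcript than the WT XX line F121, and both clones also lay above F121 for Id1, Id3 and Bmp4 and below it for Smad7. Of 6 members tested 2 were called, both higher, where 2.55% of 14335 genes were called and 1.57% were called higher. The median log2 difference of the 6 was 1.53, against -0.02 over all genes. Nog, under a mean of 1 CPM in these libraries, was not tested. All 6 had an unadjusted p under 0.05, as did 3590 of the 14335 genes tested.

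Bmp4, the ligand, had 22.9 and 22.8 CPM in the 24 h clones, against 11.2 in F121 and 9.20 in V6.5. Both clones were above both WT lines, and the difference from F121 of 1.02 ± 0.24 was not called (limma, adjusted p = 0.0767). Nog had 1.51 and 0.52 CPM in the clones, against 0.42 in F121 and 0.27 in V6.5, on 3 to 19 reads.

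Smad6, which preferentially blocks the BMP branch, had 6.74 and 6.01 CPM in the 24 h clones, against 2.03 in F121 and 2.64 in V6.5. Clones and WT lines did not overlap, and the 2.96-fold difference from F121 passed (1.56 ± 0.27 on the log2 scale; limma, adjusted p = 0.0491). Smad7 had 40.3 and 48.6 CPM in the clones, against 70.0 in F121 and 78.2 in V6.5. It was the one member with both clones below both WT lines, at -0.66 ± 0.15 against F121 (limma, adjusted p = 0.0732).

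Id1, a helix-loop-helix protein with no DNA-binding region of its own, had 81.9 and 75.2 CPM in the 24 h clones, against 17.4 in F121 and 8.56 in V6.5. Clone 1 and clone 2 stood above all other libraries, of which CM7 was the highest with 29.8 CPM. The 4.46-fold difference from F121 was not called (2.16 ± 0.46; limma, adjusted p = 0.0673). Id2 had 92.9 and 125 CPM in the clones, against 37.8 in F121 and 12.6 in V6.5. These were the 2 highest Id2 values of the 24 libraries, and the 2.84-fold difference from F121 was called (1.50 ± 0.25; limma, adjusted p = 0.0474). Id3 had 41.6 and 51.9 CPM in the clones, against 9.40 in F121 and 8.47 in V6.5. Both clones were again above both WT lines, but their level was within the range of the iPSC libraries, and the difference from F121 was not called (2.28 ± 0.55; limma, adjusted p = 0.0836).

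The comparison with F121 rests on a single WT library and on 2 clones for the spread. Both calls were lost with no filter on low values (limma, adjusted p = 0.0967 for Id2 and 0.0924 for Smad6), where 0 of all genes were called. They were also lost with voom on the recovered reads (0.0649 and 0.0655, in limma), where 16 genes were called. The main fit called 366 genes, so these losses were not particular to the members. Without clone 2 neither was called (Id2 1.29, Smad6 1.65), and without clone 1 Smad6 was not (1.48), with 1 library on each side. Against F121 and V6.5 together, a comparison added after the values were seen and one that mixes sex and strain with genotype, all 6 tested members were called by limma, 5 higher and Smad7 lower, where 21.8% of genes were called. The differences there were 2.66 ± 0.38 for Id1, 2.29 ± 0.21 for Id2, 2.36 ± 0.45 for Id3, 1.16 ± 0.19 for Bmp4, 1.39 ± 0.22 for Smad6 and -0.74 ± 0.12 for Smad7. Some of these calls were lost without either clone or without V6.5, where fewer genes were called over the whole table as well, and none was lost without F121. With 1 clone left, Bmp4 stood at 1.15 (without clone 1) and 1.16 (without clone 2), and Smad6 at 1.31 and 1.47. Leaving out V6.5 leaves F121 as the single WT library, with 2.16 for Id1 and 2.28 for Id3. Trophoblast markers, in all 8 genes, summed to 454 to 476 CPM in the 24 h clones, against 43.4 in F121 and 35.2 in V6.5, with 6 of 6 tested markers called higher against F121 (median 3.69) and no marker at 0 in the clones. Their part in these differences was not tested.

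At 0 h none of the 6 tested members was called between the clones and F121 by limma, where 8.91% of 14335 genes were called. No member had an unadjusted p under 0.05, where 4446 of all genes tested did, and voom called no member. The clones differed from each other: Id1 had 8.87 CPM in clone 1 and 21.0 in clone 2, against 10.3 CPM in F121 and 8.82 in V6.5. Id3 had 12.7 and 35.4 CPM in clone 1 and clone 2, against 16.3 CPM in F121 and 12.7 CPM in V6.5. Clone 2 was the high library for both, and for Nog, with 2.65 CPM beside 0.60 CPM in clone 1, against 0.45 CPM in F121 and 0.20 CPM in V6.5. Without clone 1 the differences from F121 were 1.02 for Id1 and 1.11 for Id3. That fit leaves 1 library on each side at 0 h, and its spread comes from the 24 h clones alone. Id2 had 81.3 and 58.7 CPM in the clones, against 58.9 in F121 and 20.9 in V6.5, and Smad6 had 4.30 and 5.14 CPM, against 2.93 and 1.30. Trophoblast markers summed to 274 to 496 CPM in the 0 h clones, against 79.8 in F121 and 78.8 in V6.5, and their part in the member levels was not tested.

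Over the 24 h without LIF, Smad7 fell in 4 of 4 lines, and Id1 was called higher on average but was higher in 3 of 4 lines. These were the 2 calls among 6 tested members, where 32.7% of 14335 genes were called. The share of members was near that of all genes. Smad7 had 40.3, 48.6, 70.0 and 78.2 CPM at 24 h in clone 1, clone 2, F121 and V6.5, against 77.6, 83.7, 95.4 and 101 CPM in the same lines at 0 h. It was lower at 24 h in 4 of 4 lines (-0.63 ± 0.12; limma, adjusted p = 0.00613). Id1 averaged 1.43 ± 0.46 higher at 24 h (limma, adjusted p = 0.0477), but the call was lost with the line as a replicate block (adjusted p = 0.0709), and the change was uneven. By line Id1 changed by 3.18 in clone 1 and 1.83 in clone 2 on the log2 scale, against 0.75 for F121 and -0.04 for V6.5. With the clone numbers exchanged at 24 h, the changes in the clones were 1.96 and 3.06, so neither clone can be called the stronger one.

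Id2 and Id3 had no common direction. Id2 changed by 0.19 and 1.08 in the clones, against -0.64 in F121 and -0.73 in V6.5. Id3 changed by 1.70 and 0.55 in the clones, against -0.78 in F121 and -0.58 in V6.5. For both genes the 24 h library was higher in 2 of 2 clones and lower in 2 of 2 WT lines. With the clone numbers exchanged, the clone changes were 0.66 and 0.62 for Id2 and 0.23 and 2.02 for Id3, all upward again. Bmp4 changed by 0.30 and -0.22 in the clones, against -0.94 in F121 and -1.99 in V6.5, so the clones kept about their 0 h level and both WT lines ended lower. Over all 4 lines its change of -0.71 ± 0.33 was not called (limma, adjusted p = 0.129). Fibroblast and feeder markers summed to 417 CPM at 24 h and 1087 CPM at 0 h in F121, and to 379 and 1176 CPM in V6.5. In the clones they summed to 249 to 382 CPM at 24 h and 164 to 344 CPM at 0 h. Of the 14 markers 1 was at 0 in V6.5 at 24 h. Their part in the Bmp4 changes was not tested. Smad6 changed by 0.63 and 0.22 in the clones, against -0.49 for F121 and 0.93 for V6.5.

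The difference between these changes, tested as an interaction added after the values were seen, was not called for any of the 6 members by limma or by voom, where 0.153% of genes were called. By limma it was 1.51 ± 0.27 for Bmp4 (adjusted p = 0.0870), 1.32 ± 0.29 for Id2 (0.111), 2.15 ± 0.53 for Id1 (0.129) and 1.81 ± 0.64 for Id3 (0.216). Of 6 members 5 had an unadjusted p under 0.05, as did 2739 of the 14335 genes tested. The libraries that share a clone number did not deviate together (correlation across genes -0.37), so the change within a clone depends on its number, which may be crossed at 1 time. The serum-induced immediate-early genes, 8 of 10 of which were called lower at 24 h, summed to 258 to 271 CPM at 24 h and 1675 to 1729 CPM at 0 h in the clones, and to 182 to 199 CPM at 24 h and 361 to 493 CPM at 0 h in the WT lines, with none at 0. Their part in the Id changes was not tested.

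**Figure D2:**
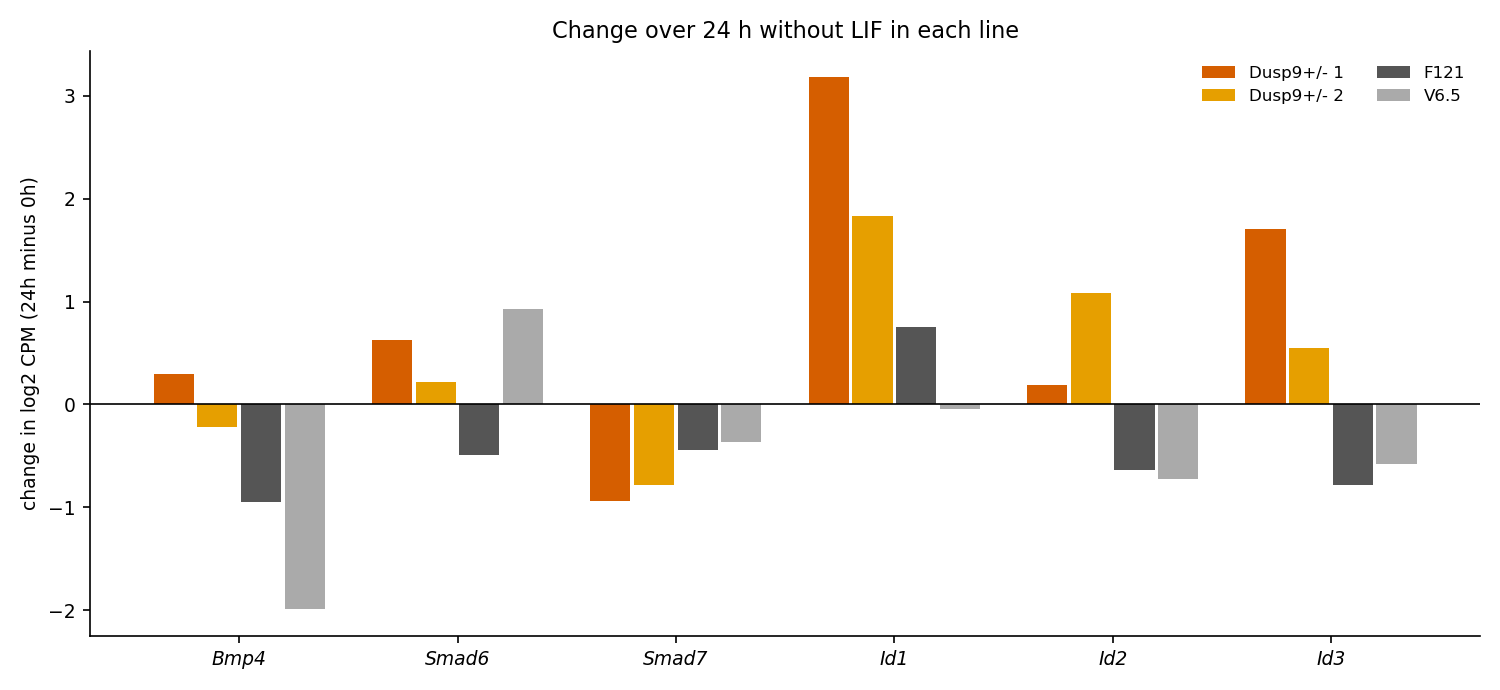
Change in log2 CPM between 24 h and 0 h of LIF withdrawal for the 6 tested genes, 1 bar per line (clone 1, clone 2, F121, V6.5). Id2 and Id3 bars point up in both clones and down in both WT lines, Id1 bars point up in both clones (3.18 and 1.83, with clone numbers that may be crossed at 1 time), and Smad7 points down in all 4 lines.

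Other genes of the pathway were read from lists by role. Against F121 at 24 h, 3 of 13 tested BMP targets were called higher in the clones and 0 lower, where 2.55% of all genes were called. They were Gata2 (3.57 ± 0.39; limma, adjusted p = 0.0355), a GATA factor with 6.19 and 7.99 CPM in the clones, against 0.42 CPM in F121 and 0.64 CPM in V6.5, the homeobox gene Dlx3 (2.65 ± 0.34, 0.0355) and Gata3 (2.00 ± 0.30, 0.0422). Gata3 is also on the trophoblast list. In the same comparison 6 of 6 tested trophoblast markers were called higher, and their part in the calls of Gata2, Dlx3 and Gata3 was not tested. Of 7 tested ligands, Bmp8b was called higher (1.73 ± 0.27; limma, adjusted p = 0.0435). No receptor (of 10), receptor-activated or common Smad or partner (8), intracellular inhibitor (11), other secreted antagonist or modulator (10) or E protein (3) was called. At 0 h, where 8.91% of all genes were called, 3 of 13 targets were called higher (Dlx3 2.50 ± 0.34, Bcl2l11 0.73 ± 0.16, Socs3 0.71 ± 0.15) and Tbx3 lower (-1.05 ± 0.14), and 3 of 10 secreted antagonists and modulators were called lower. Among them were Fst (-1.98 ± 0.41), an antagonist, and Tll1 (-3.01 ± 0.42), an astacin protease that cleaves the antagonist chordin and so frees BMP. Of 7 ligands Bmp8b was called higher at 0 h too (1.35 ± 0.27) and Gdf3 lower (-0.75 ± 0.12). Of 3 E proteins Tcf4 (-0.93 ± 0.18) and Tcf12 (-0.65 ± 0.11) were lower, and of 11 intracellular inhibitors Skil was higher (0.50 ± 0.09). Of 14 fibroblast and feeder markers 6 were called lower and 0 higher in the 0 h clones, and their part was not tested.

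Between 24 h and 0 h, 8 of 13 targets were called, 2 higher and 6 lower, where 32.7% of all genes were called. The homeobox gene Msx1 rose by 2.18 ± 0.21 and the proapoptotic gene Bcl2l11 by 0.90 ± 0.10. Those that fell included Tbx3 (-3.08 ± 0.28) and Socs3 (-2.68 ± 0.17), both also targets of LIF signalling, Zfp703 (-1.62 ± 0.25) and Hes1 (-1.50 ± 0.15). Id4, the remaining Id gene, fell by 1.14 ± 0.23. The ligands Bmp2 and Bmp7 each fell by 1.32 (SE 0.34 and 0.25), the antagonist Grem1 fell by 2.34 ± 0.42, and the type I receptor Acvrl1 fell by 1.48 ± 0.21. Among the Smads and partners Smad5 (0.32 ± 0.08) and Zfp423 (1.09 ± 0.27) rose. Of 14 fibroblast and feeder markers 7 were called lower at 24 h and 0 higher, and their part in these changes was not tested.

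In iPSCs at P7, Bmp4 and all 3 Id genes were lower than in ESCs at passage 5. Of 7 members 4 were called lower and 0 higher, where 38.9% of 14106 genes were called and 19.5% were called lower. The iPSC and CM lines differ in origin, strain and passage as well, which cannot be told apart.

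Bmp4 had 3.15, 5.84 and 7.13 CPM in XX iPSCs (LV20, LV21, LV22) and 4.18, 6.86 and 6.48 CPM in XY iPSCs (LV4, LV8, LV16), against 26.0 and 30.6 CPM in XX ESCs and 31.3 and 36.1 CPM in XY ESCs. The highest iPSC library was under the lowest ESC library, and the difference was 5.56-fold (-2.47 ± 0.23; limma, adjusted p = 6.55e-06). Nog overlapped between the 2 cell sources (0.30 ± 0.56; limma, adjusted p = 0.701), as did Smad6 (-0.04 ± 0.25; adjusted p = 0.923). Smad7 was 0.19 ± 0.08 lower and not called (limma, adjusted p = 0.0952).

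Id2 had 49.7, 39.4 and 46.6 CPM in XX iPSCs and 32.4, 28.6 and 31.0 CPM in XY iPSCs, against 78.2 and 82.6 CPM in XX ESCs and 69.3 and 51.7 CPM in XY ESCs. All iPSC values were below all ESC values (-0.90 ± 0.11; limma, adjusted p = 3.9e-05). Id3 ran from 22.5 to 47.2 CPM in the 6 iPSC libraries, against 47.5 to 96.9 CPM in the 4 ESC libraries. LV21, the highest iPSC library, lay just under CM1, the lowest ESC line (-1.13 ± 0.19; limma, adjusted p = 0.00051). Id1 had 5.39, 25.9 and 6.45 CPM in XX iPSCs and 10.8, 8.87 and 9.77 CPM in XY iPSCs, against 18.3 and 19.0 CPM in XX ESCs and 17.4 and 29.8 CPM in XY ESCs. LV21 alone reached the ESC range, and the call (-1.07 ± 0.36; limma, adjusted p = 0.0313) was lost when LV20, LV22, LV8, LV16, CM1, CM2 or CM7 was left out in turn (adjusted p = 0.0569 to 0.126). Fibroblast and feeder markers summed to 369 to 550 CPM in the iPSCs, against 769 to 934 CPM in the ESCs, with 12 of 14 called lower and none at 0, and their part in these differences was not tested. The immediate-early genes summed to 1747 to 3152 CPM in the iPSCs, against 665 to 1303 CPM in the ESCs, with 8 of 10 called higher.

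In the same comparison 6 of 13 other targets were called, 2 higher and 4 lower, and 4 of 10 secreted antagonists and modulators, shares near the 38.9% of all genes. Socs3 was 1.75 ± 0.13 higher and Dlx3 1.48 ± 0.28 higher, while Tbx3 (-1.46 ± 0.21) and Dusp9 (-0.97 ± 0.20) were lower. Of the antagonists and modulators 3 were lower, led by Grem1 (-1.76 ± 0.21), and Twsg1 was higher (0.30 ± 0.09). Among 11 intracellular inhibitors 4 were higher, led by Tob1 (1.51 ± 0.09), Skil (0.91 ± 0.06) and Smurf2 (0.89 ± 0.07), the last a ubiquitin ligase that acts with Smad6 and Smad7, and 3 were lower, led by Ctdsp1 (-1.05 ± 0.16). The type II receptor Bmpr2 (0.44 ± 0.08) and the type I receptor Acvr1 (0.49 ± 0.16) were higher, the coreceptor Rgma lower (-1.14 ± 0.22).

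Between P13 and P7 the antagonist Nog fell in the iPSC lines of both sexes, and Bmp4 rose in the female lines. In female lines 2 of 7 members were called (9.00% of 13978 genes), and in male lines 1 of 7 (13.0%). Nog had 0.10, 0.28 and 0.72 CPM in the XO lines LV20, LV21 and LV22 at P13, from 1, 3 and 6 reads, against 4.27, 5.10 and 0.75 CPM in the same lines as XX at P7. LV22 was already low at P7, at 9 reads, so the groups were separated only narrowly. In the male lines LV4, LV8 and LV16 Nog had 0.29, 1.14 and 0.14 CPM at P13, against 5.08, 5.80 and 2.28 CPM at P7, with no overlap. Nog was lower at P13 in 6 of 6 lines, by -2.51 ± 0.72 in female lines (limma, adjusted p = 0.0443) and -2.86 ± 0.72 in male lines (limma, adjusted p = 0.0208). The offset in the deposited values understates such changes.

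Bmp4 had 9.17, 21.3 and 14.8 CPM in the XO lines at P13, against 3.15, 5.84 and 7.13 CPM in the same lines as XX at P7. It was higher at P13 in 3 of 3 lines without overlap (1.46 ± 0.39; limma, adjusted p = 0.0342). In the male lines LV4, LV8 and LV16 it had 15.4, 10.4 and 6.28 CPM at P13, against 4.18, 6.86 and 6.48 CPM at P7. LV16 did not follow LV4 and LV8, the groups overlapped, and the difference was not called (0.79 ± 0.39; limma, adjusted p = 0.191). The passage change did not differ between the sexes by a called amount for Bmp4 (0.66 ± 0.55; limma, adjusted p = 0.741) or Nog (0.34 ± 1.02, 0.945).

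The female calls rest on few libraries. Both were lost without LV20 at P7 or without LV21 at P13 (limma, adjusted p = 0.0824 to 0.167), where 174 and 1020 genes were called. They were also lost with voom (Bmp4 0.0594, Nog 0.121, in limma), where 991 were called. The main fit called 1258 genes. Nog was also lost without LV21 at P7 or LV20 at P13, and Bmp4 without LV22 at either passage. The male Nog call was lost without LV4 at P7 or P13, LV8 at P7 or LV16 at P13 (limma, adjusted p = 0.0510 to 0.102), with differences of -2.70 to -2.42. All genes called in these male fits ran from 429 to 2198, against 1823 in the main fit. Fibroblast and feeder markers summed to 701 to 1848 CPM at P13, against 369 to 550 CPM at P7, with 8 of 14 called higher in female lines, 11 of 14 in male lines and none at 0. The immediate-early genes ran the other way, with 7 of 10 called lower in each sex, at 632 to 2024 CPM at P13 against 1747 to 3152 CPM at P7. Their part in the Nog and Bmp4 changes was not tested.

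For Id1 and Id3, LV21 went against LV20 and LV22. Id1 had 10.3, 15.4 and 14.5 CPM in the XO lines at P13, against 5.39, 25.9 and 6.45 CPM in the same lines at P7. LV20 and LV22 were higher at P13 and LV21 lower, and no call was made (0.44 ± 0.44; limma, adjusted p = 0.572). Id3 had 40.3, 23.2 and 54.5 CPM in the XO lines at P13, against 22.5, 47.2 and 25.1 CPM at P7, again with LV21 alone going down. LV21 at P7 is the XX library with the lowest X-linked output. At P7 its primitive streak and mesendoderm markers summed to 131 CPM, against 24.7 CPM in LV20 and 23.3 CPM in LV22. Its early neural markers, 3 of which were measured, summed to 255 CPM, against 61.6 and 63.6 CPM. The part of X-linked output or of these markers in its Id levels was not tested. Without LV21 at P7, Id1 was called higher at P13 (1.14, adjusted p = 0.0143) in limma. In the male lines Id3 was higher at P13 in 3 of 3 lines, with 54.1, 39.8 and 46.2 CPM at P13, against 30.0, 25.1 and 33.9 CPM at P7 without overlap (0.65 ± 0.29; limma, adjusted p = 0.152).

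Id2 was lower at P13 in 3 of 3 female lines (changes of -0.51 to -0.17) and higher at P13 in 3 of 3 male lines (0.24 to 0.56). The interaction was -0.68 ± 0.24, with an unadjusted p of 0.0117 and an adjusted p of 0.480 in limma, where neither limma nor voom called any member and limma called no gene at all (0%; 1242 of 13978 genes had an unadjusted p under 0.05). Smad6 was lower at P13 in 5 of 6 lines and Smad7 in 2 of 6, with no call in either sex.

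**Figure D3:**
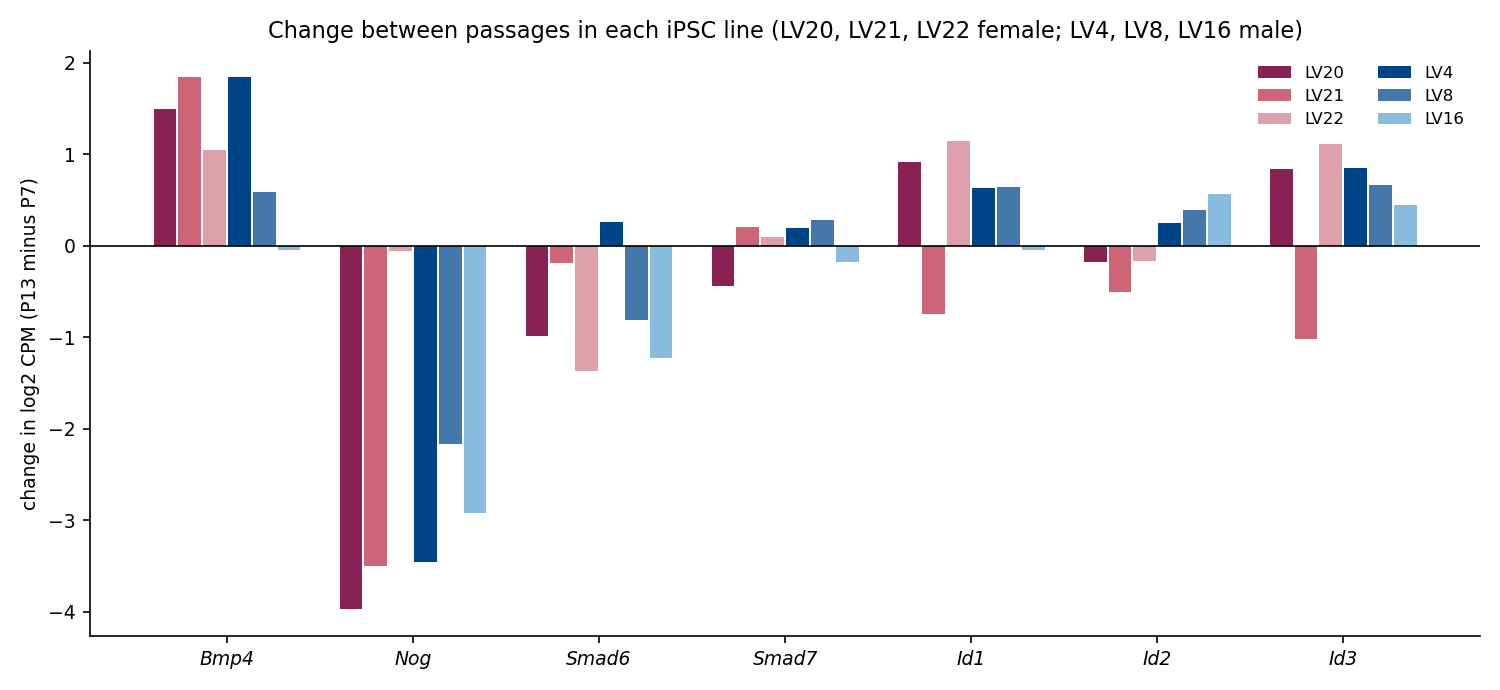
Change in log2 CPM between P13 and P7 in each iPSC line, female lines LV20, LV21 and LV22 in red shades and male lines LV4, LV8 and LV16 in blue shades. Nog bars point down in 6 of 6 lines, near 0 in LV22, and Bmp4 bars point up in 5 of 6. Id2 bars point down in the female lines and up in the male lines.

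Of 11 other secreted antagonists and modulators tested, 3 were called higher and 1 lower at P13 in male lines, where 13.0% of all genes were called, and 1 higher and 1 lower in female lines, where 9.00% were. In male lines the antagonist Grem1 (2.41 ± 0.41), the modulator Bmper (3.28 ± 0.63) and the chordin-cleaving protease Tll1 (1.91 ± 0.41) were higher at P13 and Twsg1 lower (-0.50 ± 0.11). In female lines Fstl1 was higher (0.70 ± 0.19) and Twsg1 lower (-0.55 ± 0.11). The fibroblast and feeder markers were also higher at P13, 8 of 14 of them in female and 11 of 14 in male lines, and their part in these changes was not tested. Gdf3, a TGF-beta family ligand of pluripotent cells, rose by 0.54 ± 0.10 in each sex. Bmp7 fell by 1.61 ± 0.32 in male lines. Socs3 fell by 1.11 ± 0.18 in female lines and by 1.31 ± 0.18 in male lines, and Dusp9 fell by 1.29 ± 0.26 in female lines.

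Between XX and XY WT ESCs, 1 of 7 members was called, Smad6, which was higher in XX lines, where 7.19% of 14193 genes were called. Of these lines F121 and V6.5, with 1 library each, also differ in strain, which cannot be told apart from sex there. Smad6 had 10.0, 7.77 and 2.93 CPM in the XX lines CM1, CM2 and F121, against 3.14, 3.81 and 1.30 CPM in the XY lines CM3, CM7 and V6.5. Each XX line exceeded the XY lines of its own experiment, while F121 fell below CM3 and CM7, and the difference with the experiment as a covariate was 2.34-fold (1.23 ± 0.29; limma, adjusted p = 0.0396). Without that covariate, where 149 genes were called against 1020 in the main fit, it was not called (limma, adjusted p = 0.417). Nor was it without CM1 (0.202), CM2 (0.159), CM3 (0.117) or CM7 (0.0780), or with no filter on low values (0.0514). Id2 had 78.2, 82.6 and 58.9 CPM in the XX lines, against 69.3, 51.7 and 20.9 CPM in the XY lines, higher in XX within each experiment and not called (0.78 ± 0.22; limma, adjusted p = 0.0712). Id3 had 47.5, 54.4 and 16.3 CPM in the XX lines, against 71.6, 96.9 and 12.7 CPM in the XY lines. It was lower in XX among the CM lines, where it was called (-0.71, limma, adjusted p = 0.0130), and higher in F121 than in V6.5, so the experiments differ in direction. Primitive streak and mesendoderm markers summed to 276 CPM in CM7, the highest Id3 library, against 50.7 CPM in CM3. Trophoblast markers summed to 615 CPM in CM7 and 171 CPM in CM3. Their part in the Id3 difference was not tested.

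In iPSCs at P7 none of 7 members was called between XX and XY by limma, where 4.78% of 13978 genes were, and voom called none. Smad6, Id2 and Smad7 had an unadjusted p under 0.05, as did 2994 of the 13978 genes tested. Smad6 had 10.2, 5.10 and 9.30 CPM in XX lines LV20, LV21 and LV22, against 2.94, 5.09 and 3.38 CPM in XY lines LV4, LV8 and LV16. LV21 lay level with LV8, the highest XY line (1.05 ± 0.38; limma, adjusted p = 0.129). Id2, with 39.4 to 49.7 CPM in XX lines against 28.6 to 32.4 CPM in XY lines, did not overlap (0.55 ± 0.17; limma, adjusted p = 0.0748). Without LV21 both were called in limma, Smad6 at 1.35 (adjusted p = 0.0383) and Id2 at 0.65 (0.0294). Smad7 had 67.6 to 78.3 CPM in XX lines against 53.2 to 62.1 CPM in XY lines, without overlap (0.32 ± 0.13; limma, adjusted p = 0.169).

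At P13, when the female lines are named XO, none of 7 members was called by limma against XY, where 0.0286% of genes were called. No member had an unadjusted p under 0.05, where 376 of all genes tested did, and voom called no member. Smad6 had 5.04, 4.44 and 3.47 CPM in XO lines LV20, LV21 and LV22, against 3.53, 2.81 and 1.34 CPM in XY lines LV4, LV8 and LV16. The groups overlapped, with LV22 just under LV4 (0.79 ± 0.38; limma, adjusted p = 0.999). Id2 had 27.7 to 43.9 CPM in XO lines and 37.6 to 46.0 CPM in XY lines, with overlap and a difference of -0.13 ± 0.17 (limma, adjusted p = 0.999).

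Among the other pathway genes, Tbx3 and Dusp9 were called higher in XX than in XY cells of both kinds, Tbx3 by 1.98 ± 0.31 in iPSCs at P7 and 1.14 ± 0.16 in ESCs and the X-linked Dusp9 by 1.01 ± 0.26 and 1.10 ± 0.13. So was Eng, a coreceptor, by 0.78 ± 0.15 and 0.92 ± 0.15. In XX ESCs Smad9 (2.23 ± 0.49), Bmp6 (1.66 ± 0.31), Bmp8a (1.30 ± 0.31) and Nedd4l (0.68 ± 0.09) were also called higher. The E proteins Tcf3 (-0.38 ± 0.08) and Tcf4 (-0.44 ± 0.09) were called lower. Smad9 had 1.24 to 3.90 CPM in the XX lines against 0.16 to 0.50 CPM in the XY lines, a low level that limits any statement on its size. Among these ESCs, F121 and V6.5 differ in strain as well as sex. In XX iPSCs Gata3 was called higher (2.51 ± 0.68), but it was at 0 reads in the XY line LV4, so this size depends on the offset. Of 6 tested trophoblast markers, Gata3 among them, 1 was called higher and 1 lower there. No gene of these lists was called between XO and XY at P13.

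**Figure D4:**
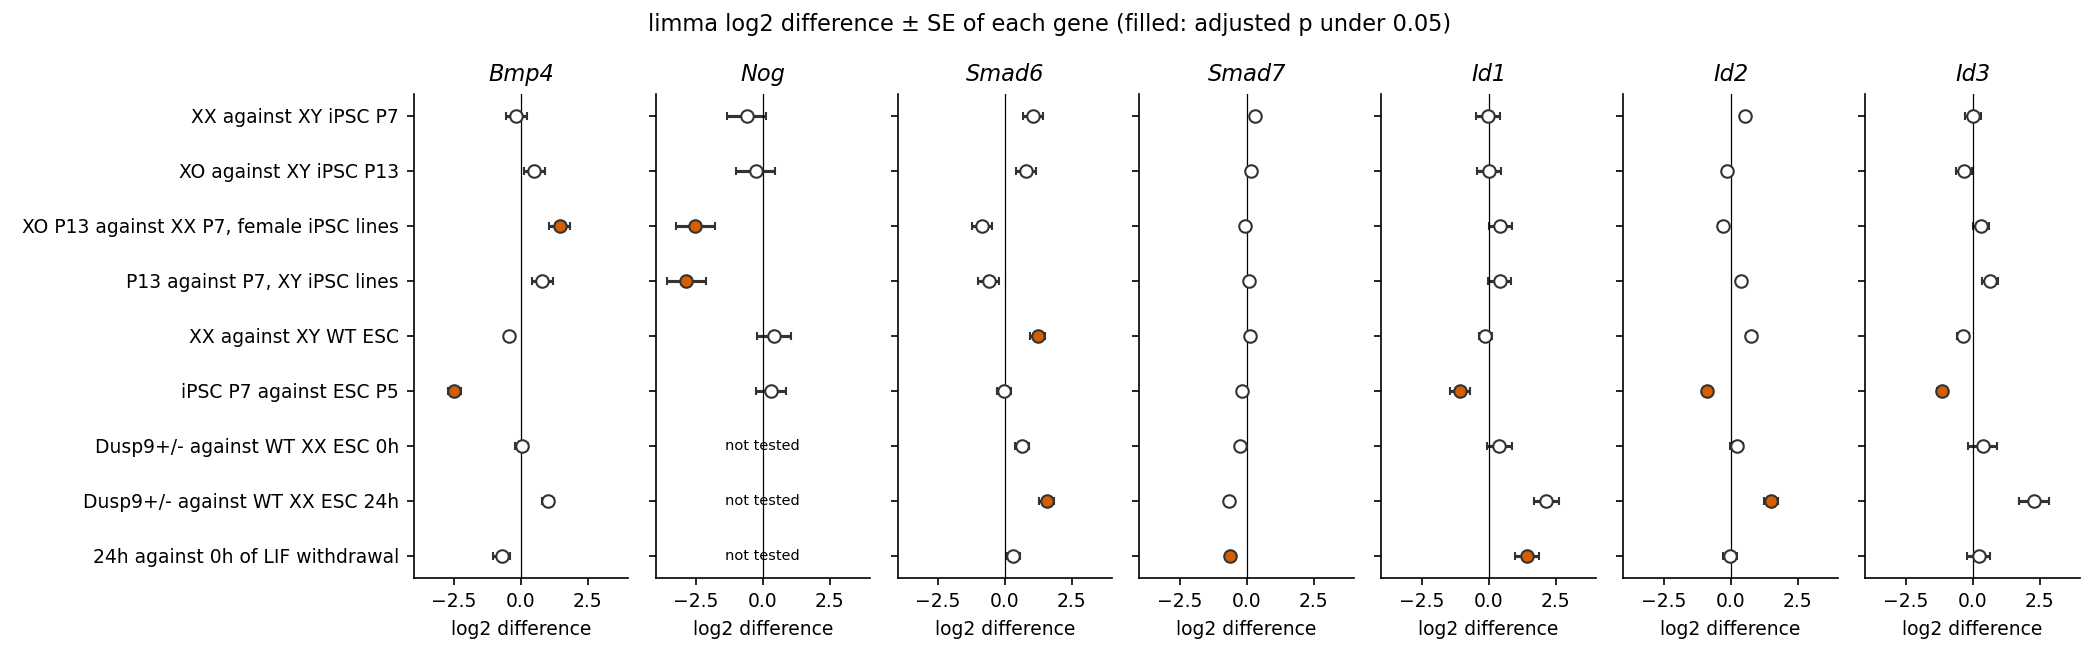
limma log2 difference ± SE of each gene in 9 comparisons, with filled points for adjusted p under 0.05 and Nog marked where it was not tested. The filled points are Bmp4, Id1, Id2 and Id3 left of 0 for iPSCs against ESCs, Smad6 and Id2 right of 0 in the 24 h clones, Nog left of 0 at P13 in both sexes, Bmp4 right of 0 in female lines at P13, Smad6 right of 0 in XX ESCs, and Id1 and Smad7 for LIF withdrawal.

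The genes with profiles nearest to each member were found by the mean absolute difference of log2 values over the 24 libraries, after centring each gene. Kifc3 was nearest to Bmp4 (0.33), Piezo2 to Nog (0.74), Mex3b to Smad6 (0.30) and Atmin to Smad7 (0.14). The 3 nearest genes all lay at 0.74 for Nog and at 0.14 to 0.15 for Smad7, so their order is not settled. Fam83h was nearest to Id1 (0.39), Rps6kl1 to Id2 (0.24) and Nckap5l to Id3 (0.40). Next came Pitpnm2 (0.42), Pink1 (0.30) and Snai1 (0.41). No member was among the 3 nearest genes of another. The median distance over all genes was 0.65 for Id2, 0.78 for Id1 and 0.80 for Id3. It was 0.94 for Bmp4, 1.30 for Nog, 0.68 for Smad6 and 0.41 for Smad7.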

How the data were processed

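RNA was extracted with TRIzol and read single-end from a stranded mRNA kit, per the labels' protocols; the strand setting of the counting is not given in the sources used here. Per the submitters' processing notes, STAR 2.5.3a, featureCounts and edgeR were among the tools, with no roles given. The authors deposited log2 CPM with an offset for 16687 genes in 24 columns. Whole reads were recovered from the steps of the values (100% within 0.01 read), and CPM printed here are those reads times the step. The labels list 52 samples, with 20 accessibility samples not analysed here and 8 technical repeats; whether repeats were combined is not stated. The labels do not say that libraries of 1 line came from separate cultures, so p-values measure the spread between lines or clones. In the fit of 24 h against 0 h, without pairing by line, that spread also holds unequal changes of the genotypes. Against F121 and V6.5 together it comes from the clones alone, so the gap between F121 and V6.5 does not enter it.

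The deposited log2 values were the input of limma 3.58.1 (R 4.3.3, trend). Genes under a mean of 1 CPM were left out, and p-values were adjusted by Benjamini-Hochberg. The 12 iPSC libraries shared 1 fit of group means, the 8 withdrawal libraries another, in which the clones supply the spread of the single F121 and V6.5 libraries. The WT ESC fit had the experiment as a covariate. Named are the 7 members, up to 4 called genes of each pathway list with the largest differences, and the 3 nearest profiles of each member. The members, lists and comparisons were chosen with earlier results of these data known. A gene of the antagonist list is not reported here and is left out of its counts. The fits were tested on simulated data. iPSC libraries pair by line across passages, since they are the same cell lines (correlation of their deviations -0.04 to 0.10). Alternatives were log2(CPM + 1), no filter, a mean of at least 4 CPM, median-of-ratios scaling, voom on recovered reads, a replicate block, and leaving out each library. Sequences are from RefSeq tables of GRCm38.p6.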

Additional observations from a re-analysis of the deposited data

Results flagged for a closer look

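Lines moved in opposite directions for Id2 and Id3. Between P13 and P7, Id2 moved down in every female line and up in every male line, with an interaction of -0.68 on the log2 scale. Between 24 h and 0 h, both Dusp9+/- clones moved up and both WT lines down for Id2 (interaction 1.32) and for Id3 (1.81). Each was tested with limma as an interaction term and did not pass (adjusted p = 0.480, 0.111 and 0.216).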

How the results depend on the processing

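Of 1000 recomputed values of single members, 870 kept their direction and their side of the threshold, 61 lost a call and 18 gained one. The other 51 were not called under either setting and changed sign, so the direction of those differences, which belong to 23 pairs of member and comparison, is not settled. They include Smad6 for the difference between the 24 h changes, which was -0.50 without F121. Counts below are of members called, with all genes called in the same fit in brackets where given. No filter on low values left 0 for XO P13 against XX P7 (953) and 0 for XX against XY ESCs (950). It left 0 for Dusp9+/- against WT XX at 24 h (0) and 1 for 24 h against 0 h (4994). A mean of at least 4 CPM left 1 for XO P13 against XX P7 (1220). It left 0 for P13 against P7 in male lines (1699), where Nog is no longer tested. For Dusp9+/- at 24 h it left 0 (283) and for 24 h against 0 h 1 (3674). With voom 0 were called for XO P13 against XX P7 (991) and 0 for Dusp9+/- at 24 h (16). With the spread of the 6 libraries compared, 0 were called for the female passage change (436) and 2 for the male one (2329). Leaving out LV21 at P7 and LV22 at P13, chosen after seeing the data, gave 2 for XX against XY at P7 (1818). It gave 1 for the female passage change (1637). Within the CM lines 2 were called between XX and XY ESCs (1690), and with no experiment covariate 0 (149). The cause of these changes was not tested. With the line as a replicate block 1 member was called at 24 h against 0 h (3607). For the passage change 2 were called in female lines, 1 in male lines and 0 for their difference. The block changed no other member's call. Crossing the 2 clones, whose numbers at 0 h and 24 h went against each other, gave 1 (4493). Leaving out each library in turn gave 0 to 2 for XX against XY at P7, 0 for XO against XY at P13, 0 to 2 for the female and 0 to 1 for the male passage change, 0 for their difference, 0 to 2 for XX against XY ESCs, 3 to 4 for iPSCs against ESCs, 0 to 2 for Dusp9+/- at 0 h, 0 to 1 at 24 h, 1 to 2 for 24 h against 0 h, 0 to 3 for the difference between these changes and 2 to 6 against both WT lines. F121 was not left out of the comparisons with F121 alone, where it is the single WT library. Leaving out a clone there left 1 library on each side. All genes called varied between these fits too. For the female passage change they were 174 without LV20 at P7 and 1020 without LV21 at P13. The main fit called 1258. Nog counts of 1 to 3 reads limit any statement on its size.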
